A study of Populus trichocarpa with 45 samples.

Results

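Divergent, or head-to-head, gene pairs were examined in leaf transcriptomes of Populus trichocarpa, the black cottonwood. In such a pair the first gene lies on the minus strand and its neighbour on the plus strand, so that both are transcribed away from the stretch between them. Genes were sorted by chromosome and start. Neighbours were kept where the start of the second lay 1 to 1000 bases after the end of the first and both genes had a mean of at least 1 TPM over 45 libraries. TPM is a level corrected for transcript length and for the total of a library. The rule gave 287 divergent pairs out of 34679 neighbouring pairs, and they held 574 of the 34700 genes in the files. No gene belonged to more than 1 divergent pair, and all members lay on the 19 chromosomes.

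The stretch between the genes of a divergent pair can act as a bidirectional promoter, a segment of DNA from which transcription starts in both directions. Genes on such a promoter can share open chromatin and regulatory elements, and in several organisms they are often expressed together, although each side may also carry elements of its own. In same-strand neighbours the promoter of the downstream gene lies next to the end of the upstream gene, and in convergent neighbours only the 3′ ends of the genes meet. Same-strand neighbours at equal distance were therefore the main comparison, with convergent neighbours beside them.

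RNA came from leaves of wild, untreated trees growing in Oregon and was made into strand-specific mRNA libraries. The 45 libraries covered 15 branches with 3 libraries each, namely 5 branches of tree 4, 5 of tree 13 and 5 of tree 14. By the study's account, trees 13 and 14 are 2 stems that belong to the same individual and tree 4 is separate, whereas the growth protocol in the labels describes 1 wild tree as the origin of every sample. The study calls the 3 libraries of a branch biological replicates in 1 place and technical replicates in another, so the branch was the unit for trees and stems, and p-values there rest on the spread of branches only, with no replication of individuals. The gene identifiers come with no names, and none matched the RefSeq gene table used here, which is of another assembly. Leaf markers, pathway lists and the roles of single genes could therefore not be given, and genes are called by identifier and by position in the Stettler genome. No sequence of that genome was used.

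Steps in the FPKM values gave the depth: the shallowest library held 11870000 fragments, the deepest 35940000 and the middle one 23920000. At that median, about 18.3 fragments stood behind 1 TPM of a gene with 1000 transcribed bases. There were 210 genes whose levels moved together from library to library of 1 branch, and they took 1.03 to 50.6% of the TPM of a library (median 5.58%), with the highest share in the third library of branch 14.1. For this reason TPM values were divided by scaling factors that ran from 0.502 to 1.28. These 210 genes are called co-varying genes below, and the main results that they touch are also given without them. No pair of libraries held identical values.

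Divergent neighbours were the rarest of the close arrangements. Of 7996 divergent neighbours, 564 (7.05%) had a gap of 1 to 1000 bases, against 2436 of 18692 same-strand neighbours (13.03%) and 2278 of 7991 convergent neighbours (28.5%). A further 150 divergent neighbours touched or overlapped and were not examined. Among the 564 close divergent pairs both genes reached 1 TPM in 287 (50.9%), 1 of them did in 196 (34.8%) and neither did in 81 (14.4%). The corresponding shares were 41.3%, 38.3% and 20.4% in same-strand pairs, and 50.5%, 39.1% and 10.4% in convergent pairs. The divergent pairs thus had both genes above the threshold in a larger share of cases than same-strand pairs and in nearly the same share as convergent pairs.

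The pairs lay on every chromosome, with 26 on chromosome 5, 23 on chromosome 1, 22 on chromosome 10 and 2 on chromosome 19. The median gap was 491 bases. The widest gap was 999 bases, between PtStettler14.04G072400 (chromosome 4, 6903767 to 6907252) and PtStettler14.04G072500 (6908251 to 6912799). The next divergent pair outside the rule was PtStettler14.02G176400 and PtStettler14.02G176500 on chromosome 2, with a gap of 1009 bases and means of 4.19 and 2.05 TPM. The narrowest gaps were 17 bases, between PtStettler14.05G143400 and PtStettler14.05G143500 on chromosome 5, and 33 bases, between PtStettler14.13G140400 and PtStettler14.13G140500 on chromosome 13. At the threshold on level, PtStettler14.03G084700 (mean 1.01 TPM) and PtStettler14.18G000500 (1.02 TPM) were just inside, and PtStettler14.02G173200 (0.996 TPM) and PtStettler14.07G113700 (0.961 TPM) were just outside.

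The genes of a divergent pair were mostly expressed at unequal levels. Since the rule set a minimum level, levels are a description. The lower gene of a divergent pair had a median of 5.43 TPM (quartiles 2.74 and 12.5) and the higher gene a median of 21.8 TPM (quartiles 11.01 and 45.1). The median difference was 3.10-fold. In same-strand pairs the medians were 4.78 and 20.7 TPM and the median difference 3.45-fold, and in convergent pairs they were 5.09 and 22 TPM and 3.67-fold. Levels lay within 2-fold of each other in 95 divergent pairs (33.1%), against 30.8% of same-strand and 28.9% of convergent pairs, and more than 10-fold apart in 50 divergent pairs (17.4%), against 20.6% and 23.4%. Neither strand was favoured, since the minus-strand gene was the higher one in 143 of 287 pairs. Across pairs the levels of the partners were only weakly related, with a Spearman's rho of 0.14 over the 287 divergent pairs, against 0.10 over 1005 same-strand pairs and 0.00 over 1151 convergent pairs.

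**Figure D1:**
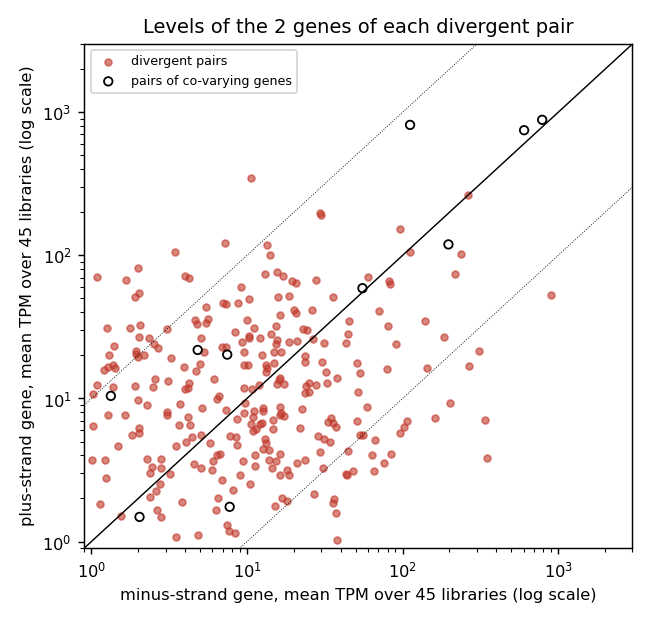
Mean TPM over 45 libraries of the plus-strand gene against that of the minus-strand gene, both on log scales, for the 287 divergent pairs. The solid line marks equal levels, the dotted lines mark 10-fold differences (50 pairs lie outside them), and open circles are the 10 pairs of co-varying genes.

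The difference in level was largest in the widest gaps. The median absolute log2 ratio of the partners' means was 1.44 at gaps of 1 to 200 bases (65 pairs), 1.502 at 201 to 400 bases (57 pairs), 1.48 at 401 to 600 bases (44 pairs), 1.61 at 601 to 800 bases (59 pairs) and 2.07 at 801 to 1000 bases (62 pairs). The pair with the largest ratio was PtStettler14.08G010000 (chromosome 8, 672148 to 673128) and PtStettler14.08G010100 (673846 to 677601), at means of 347.7 and 3.85 TPM, which is a 90.3-fold difference across 718 bases. Next came PtStettler14.09G121100 and PtStettler14.09G121200 on chromosome 9, at 1.09 and 70.2 TPM, 64.3-fold apart. The most equal levels belonged to PtStettler14.09G056800 (chromosome 9, 6597250 to 6599066) and PtStettler14.09G056900 (6599878 to 6603045), at 261.5 and 264.2 TPM, and to PtStettler14.15G126500 and PtStettler14.15G126600 on chromosome 15, at 26.6 and 25.8 TPM. The gaps were 718 and 923 bases in the 2 unequal pairs and 812 and 637 bases in the 2 equal ones.

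Few genes of divergent pairs varied widely between branches. Variation was taken as the range between the lowest and the highest of the 15 branch means of log2(scaled TPM + 1). This range reached 1 log2 unit in 44 of 574 genes of divergent pairs (7.67%), against 13.7% of 1948 genes in same-strand pairs, 12.9% of 2302 genes in convergent pairs and 14.4% of the 21792 genes with a mean of at least 1 TPM outside divergent pairs. Without co-varying genes the shares were 4.33% (24 of 554 genes), 9.76%, 11.6% and 13.8%. Genes of divergent pairs had the lowest share of the 4 groups in each level class as well, while the order of the other groups changed. The share was 6.96% in genes of divergent pairs against 13.7% in the genes outside them at 1 to 5 TPM, 6.22% against 12.9% at 5 to 20 TPM and 9.95% against 17.3% at 20 TPM or more. These are shares of genes and were not tested, because genes of the same libraries are not replicates.

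Whether the partners of a pair varied together was then measured by Pearson's r over the 15 branch means. Branches of a tree share that tree, and all branches share the scaling, so r is a description and carries no p-value. The median r of the 287 divergent pairs was 0.14 (quartiles -0.22 and 0.51), against 0.17 in 1005 same-strand pairs and -0.03 in 1151 convergent pairs. The median over all pairs that can be formed from the 22366 genes with a mean of at least 1 TPM was 0.00. An r over 0.5 was found in 76 divergent pairs (26.5%), against 25.7% of same-strand pairs, 17.0% of convergent pairs and 14.5% of all gene pairs. An r under -0.5 was found in 27 divergent pairs (9.41%), against 10.7%, 16.1% and 14.5%. Without co-varying genes an r over 0.5 was found in 24.2% of divergent, 21.7% of same-strand and 15.9% of convergent pairs, and the medians were 0.09, 0.13 and -0.03. Over all gaps divergent pairs therefore lay close to same-strand pairs and above convergent pairs. The level of r depended on the scaling. For TPM as deposited the median of divergent pairs was 0.56 and 167 of them (58.2%) had an r over 0.5, against 53.0% of same-strand and 40.7% of convergent pairs.

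**Figure D2:**
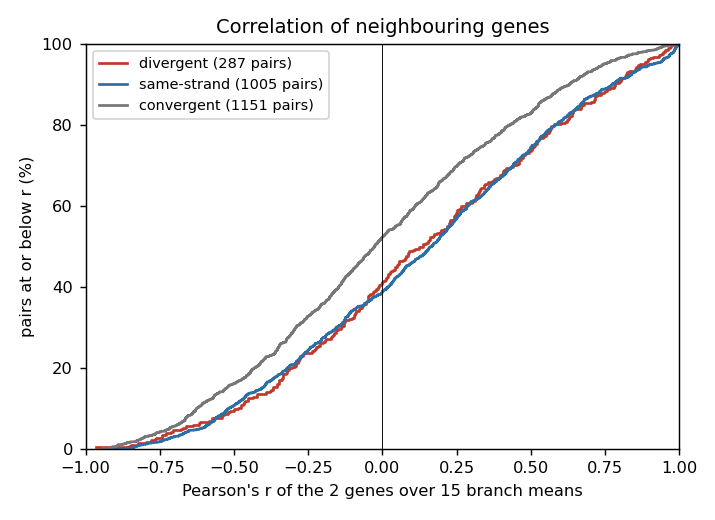
Percentage of pairs at or below each Pearson's r over 15 branch means, for 287 divergent, 1005 same-strand and 1151 convergent neighbouring pairs. The curves of divergent and same-strand pairs lie together (medians 0.14 and 0.17) and to the right of the curve of convergent pairs (median -0.03).

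At equal distance the orientations differed most at the closest spacing. In divergent pairs the median r was 0.24 at gaps of 1 to 200 bases, 0.18 at 201 to 400, 0.02 at 401 to 600, -0.05 at 601 to 800 and 0.12 at 801 to 1000 bases. In same-strand pairs the medians were 0.53, 0.10, 0.11, 0.13 and 0.15 in the same order. Convergent pairs lay between -0.08 and 0.04 in all 5 bins. Divergent pairs were thus lower than same-strand pairs at up to 200 bases, higher at 201 to 400 bases and lower again in the wider bins. Beyond the rule, at gaps of 1001 to 2000 bases, the median was 0.05 in 297 divergent pairs and 0.09 in 1110 same-strand pairs.

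Averaged over the 5 bins, weighted by the number of divergent pairs, the median r of divergent pairs minus that of same-strand pairs was -0.11. This difference was not stable. It was 0.01 over the 10 branches of trees 13 and 14, -0.02 over deviations from tree means and 0.01 for TPM as deposited, and -0.05 without branch 4.2. Among close pairs without co-varying genes, at gaps of 1 to 200 bases, the medians were 0.22 in 59 divergent pairs and 0.41 in 89 same-strand pairs. The lower value of the close divergent pairs was also seen over deviations from tree means, at 0.28 against 0.46, and over the 10 branches, at 0.33 against 0.51.

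**Figure D3:**
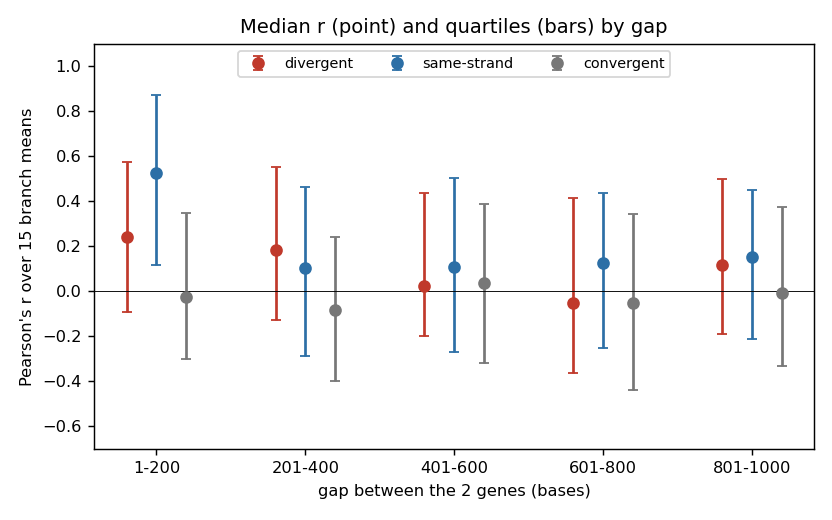
Median (points) and quartiles (bars) of Pearson's r over 15 branch means by gap in bins of 200 bases, for divergent, same-strand and convergent pairs. At 1 to 200 bases the median is 0.24 for divergent and 0.53 for same-strand pairs, and at wider gaps both lie between -0.05 and 0.18.

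Among divergent pairs the median r was higher in the more strongly expressed ones, and r also spread more widely. In the 36 divergent pairs whose lower gene had at least 20 TPM the median r was 0.53, and it was 0.46 in the 31 of them without co-varying genes. It was 0.15 in 117 divergent pairs with a lower gene at 5 to 20 TPM and 0.05 in 134 pairs with a lower gene at 1 to 5 TPM. An r under -0.5 was found in 6 of the 36 strongly expressed divergent pairs (16.7%), against 7.69% at 5 to 20 TPM and 8.96% at 1 to 5 TPM. Same-strand pairs gave 0.53, 0.15 and 0.11 in the same classes, and 0.25 in the highest class without co-varying genes. Values of weakly expressed genes rest on fewer fragments, and the part of this error in their lower r was not tested. Similarity of level went with a small difference, with a median r of 0.17 in the 95 divergent pairs within 2-fold and 0.01 in the 50 pairs more than 10-fold apart, and it was 0.12 in the 90 pairs within 2-fold that held no co-varying gene.

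A second reading came from the libraries of a branch, as the correlation of the partners over deviations of the 45 libraries from their branch means, which the branch means do not enter. Over all 287 divergent pairs its median was 0.07, against 0.05 in same-strand pairs and 0.02 in convergent pairs, and without co-varying genes the medians were 0.07, 0.03 and 0.01. In the 76 divergent pairs with r over 0.5 over branch means, the median over library deviations was 0.25 and 54 pairs (71.1%) were positive. In the 27 pairs with r under -0.5 the median was -0.05 and 11 pairs (40.7%) were positive. The 184 pairs in between had a median of 0.06, with 105 (57.1%) positive. Co-varying genes were chosen by their library deviations, and 9 of the 76 pairs consisted of them. In the other 67 the median was 0.14 and 45 pairs (67.2%) were positive, against a median of 0.06 and 104 positive pairs (56.8%) in the 183 pairs in between. Within trees, 14 of the 27 negative pairs kept an r under -0.5 over deviations from tree means, whereas 54 of the 76 positive pairs kept an r over 0.5.

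Both partners varied widely in 11 divergent pairs, in which each gene spanned at least 1 log2 unit between branches. They were 3.83% of the 287, against 6.47% of same-strand and 2.61% of convergent pairs. Of these 11, 10 consisted of 2 co-varying genes each. Their spans ran from 96 to 7524 bases with a median of 280.5, their mean levels from 1.33 to 885.6 TPM, and they lay on chromosome 13 (4 pairs), chromosome 11 (3), chromosome 7 (2) and chromosome 5 (1). Over library deviations the partners had an r of 0.81 to 0.99, which is how the co-varying genes were chosen and is no finding. On chromosome 13 they set the picture, since the median r of its 14 divergent pairs was 0.66 and that of the 10 without co-varying genes was 0.22.

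The 4 highest correlations among these 11 pairs were 0.98 for PtStettler14.13G145300 and PtStettler14.13G145400, 0.97 for PtStettler14.11G096900 and PtStettler14.11G097000, 0.97 for PtStettler14.18G089900 and PtStettler14.18G090000, and 0.96 for PtStettler14.13G143600 and PtStettler14.13G143700. The highest-expressed divergent pairs were also co-varying. PtStettler14.13G139800 (chromosome 13, 16169603 to 16169818) and PtStettler14.13G139900 (16170574 to 16170705) had means of 789.0 and 885.6 TPM and an r of 0.95. PtStettler14.11G062700 (chromosome 11, 7378017 to 7378196) and PtStettler14.11G062800 (7378389 to 7378736) had means of 603.9 and 749.1 TPM and an r of 0.95. Their levels differed widely between libraries of a branch, with the third library of branch 14.1 at 5510 and 9141 scaled TPM for the pair on chromosome 11.

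The 4 lowest correlations among the 11 pairs were all positive. They were 0.25 for PtStettler14.07G059800 and PtStettler14.07G059900, 0.80 for PtStettler14.05G129000 and PtStettler14.05G129100, 0.82 for PtStettler14.11G096300 and PtStettler14.11G096400, and 0.91 for PtStettler14.13G140400 and PtStettler14.13G140500. The pair at 0.25 held a gene, PtStettler14.07G059900 (chromosome 7, 7116612 to 7116890), that was listed at 0 in all libraries of branches 13.1, 13.4, 13.5 and 14.5 and reached 736.0 scaled TPM in branch 14.1. Its r was -0.10 without the 2 branches farthest from the median of the first gene. Its value of 0.25 thus rested on those branches.

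Outside the co-varying genes only 1 divergent pair had both genes spanning 1 log2 unit, namely PtStettler14.18G089900 (chromosome 18, 12754815 to 12755152, minus strand) and PtStettler14.18G090000 (12755550 to 12757414, plus strand), 398 bases apart. The minus-strand gene had 206.5, 197.7, 174.7, 193.9 and 137.6 scaled TPM in branches 4.1 to 4.5, against 306.6, 338.1, 329.7, 333.6 and 343.8 in branches 13.1 to 13.5 and 322.1, 263.5, 326.2, 265.1 and 259.9 in branches 14.1 to 14.5. The plus-strand gene had 13.01, 11.7, 9.90, 10.5 and 8.41 in tree 4, against 21.3, 22.8, 22.7, 22.6 and 23.8 in tree 13 and 17.8, 17.0, 18.3, 15.4 and 15.5 in tree 14. Both genes were lower in every branch of tree 4 than in any other branch, and branch 4.5 was the lowest for both. Their r was 0.97 (Spearman's rho 0.97), 0.90 over deviations from tree means, 0.51 over library deviations and 0.95 without the 2 farthest branches. Over the 15 branches the genes moved largely in parallel at levels 15.8-fold apart.

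The next 2 pairs by r outside the co-varying genes, chosen after their values were seen, spanned less. PtStettler14.07G117500 (chromosome 7, 14104097 to 14109892) and PtStettler14.07G117600 (14109938 to 14112679) lay 46 bases apart, and r was 0.94 over branch means, 0.92 over deviations from tree means and 0.60 over library deviations. The minus-strand gene ran from 8.997 scaled TPM in branch 4.4 to 13.5 in branch 14.4, and the plus-strand gene from 4.57 in branch 4.1 to 7.60 in branch 13.3. Tree 4 held the lowest branches of both genes, but the trees overlapped. PtStettler14.17G129800 and PtStettler14.17G129900 on chromosome 17, 760 bases apart, had an r of 0.93, which was 0.80 over deviations from tree means and 0.56 over library deviations.

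Opposite variation also occurred. The lowest r of all divergent pairs was -0.97, between PtStettler14.13G019600 (chromosome 13, 1384301 to 1391278) and PtStettler14.13G019700 (1392070 to 1396305), which lie 792 bases apart and were chosen after their values were seen. The minus-strand gene had 20.1, 23.7, 22.4, 21.0 and 23.6 scaled TPM in branches 4.1 to 4.5, 20.5, 21.4, 25.3, 23.2 and 21.97 in branches 13.1 to 13.5 and 20.3, 21.7, 23.8, 25.2 and 25.7 in branches 14.1 to 14.5. The plus-strand gene had 34.0, 28.8, 31.2, 32.6 and 29.3 in tree 4, 32.5, 32.0, 26.8, 29.5 and 30.0 in tree 13, and 32.0, 30.7, 28.1, 27.95 and 26.8 in tree 14. In each tree the branches that were high in one gene were low in the other, and the trees overlapped. The ranges were small, 0.34 and 0.33 log2 units, but r stayed between -0.97 and -0.96 when any branch was left out, was -0.97 over deviations from tree means and was -0.42 over library deviations. A similar order of branches was seen elsewhere. PtStettler14.07G117500 on chromosome 7 had 10.3, 11.2, 13.2, 12.6 and 12.3 scaled TPM in branches 13.1 to 13.5. In tree 4 it was also lowest in branches 4.1 and 4.4. These readings do not remove variation that a pair shares with other genes, and its part in this r was not tested.

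The other pairs at the negative end were weaker in at least 1 reading. PtStettler14.04G054100 and PtStettler14.04G054200 on chromosome 4, 648 bases apart, had an r of -0.85, which was -0.77 over deviations from tree means and -0.36 over library deviations. PtStettler14.04G174100 and PtStettler14.04G174200, also on chromosome 4, had an r of -0.85 that was -0.14 over deviations from tree means and 0.17 over the 10 branches of trees 13 and 14. Its negative r was thus seen across trees and hardly within them. The pair with the largest difference in level, PtStettler14.08G010000 and PtStettler14.08G010100, was negative as well (r = -0.71, and -0.69 over deviations from tree means), with a value of -0.03 over library deviations. At the edges of the rule, r was 0.01 in the pair with the widest gap, -0.43 in the pair just outside it and 0.48 in the pair 17 bases apart.

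**Figure D4:**
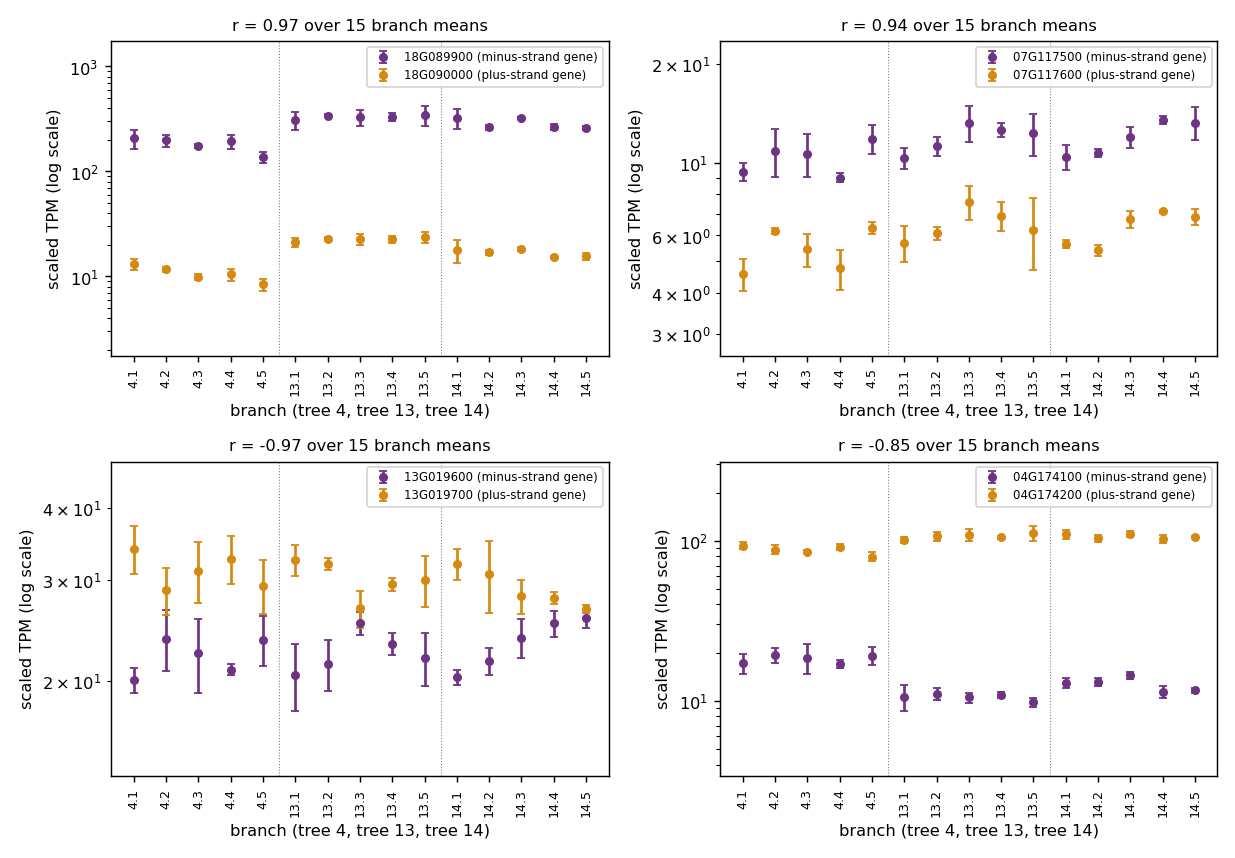
Scaled TPM (log scale) of the minus-strand and plus-strand gene of 4 divergent pairs in the 15 branches, with points at the mean and bars at the SD of 3 libraries. Dotted lines separate tree 4, tree 13 and tree 14, and identifiers are drawn without the prefix PtStettler14. The upper pairs move together (r = 0.97 and 0.94) and the lower pairs move apart (r = -0.97 and -0.85).

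Tree 4 was then compared with trees 13 and 14, to ask whether the partners of a pair changed together between trees. Most libraries of tree 4 were deeper than those of the other trees, and the part of depth in these changes was not tested. With limma on 15 branch means, 204 of the 574 genes of divergent pairs (35.5%) changed at an adjusted p of at most 0.05, against 36.5% of the 23816 genes tested. Of these, 80 were higher in tree 4 (13.9% of the members, against 17.6% of all genes) and 124 were lower (21.6%, against 18.9%). The median log2 change of the members was -0.02, against 0.01 over all genes tested. The direction depended on the scaling. For TPM as deposited the median of all genes shifted to 0.12 and that of the members to 0.09. There 140 of 574 members were called, 122 of them higher (87.1%) and 18 lower. Over all genes 7892 of 24009 were called, and 78.2% of these were higher. Changes were mostly small, and only 2 members were called with a change of at least 1 log2 unit, against 1.34% of all genes. These were PtStettler14.03G155700 and PtStettler14.09G045200, both lower in tree 4.

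Both genes were called in 36 divergent pairs (12.5%, against 14.1% of all 2443 close neighbouring pairs), 1 gene in 132 pairs and neither in 119 pairs. Of the 36 pairs, 7 had both genes higher in tree 4, 20 had both lower and 9 had opposite directions, so that 27 (75%) went in 1 direction. In the 27 pairs the smaller of the 2 changes had a median of 0.23 log2 units (0.13 to 0.77), and the partners differed by a median of 0.10. In the 9 pairs the smaller change had a median of 0.14 (0.09 to 0.28). In same-strand pairs both genes were called in 145 pairs, of which 94 (64.8%) went in 1 direction, and in convergent pairs in 163 pairs, of which 78 (47.9%) did. For TPM as deposited 15 divergent pairs went in 1 direction and 3 in opposite directions. Without co-varying genes the counts of divergent pairs with 1 or both genes called were the same, and 109 of 277 had no call. At gaps of up to 200 bases both genes were called in 4 of 65 divergent pairs (6.15%), all of them lower in tree 4. The same held for 15 of 112 same-strand pairs (13.4%) as to both genes being called, 13 of them in 1 direction. In convergent pairs of these gaps both genes were called in 43 of 317 (13.6%), 21 of them in 1 direction. The shares of the orientations were not tested against each other. Within trees, where the comparison of trees plays no part, the median r was 0.50 in the 27 pairs called in 1 direction, -0.12 in the 9 called in opposite directions, 0.11 in pairs with 1 call and 0.09 in pairs with none.

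The pair that fell most in tree 4 in both genes was PtStettler14.18G089900 and PtStettler14.18G090000, whose branch values are given above. The minus-strand gene averaged 182.1 ± 27.4 scaled TPM in tree 4, against 330.4 ± 14.3 in tree 13 and 287.3 ± 33.7 in tree 14 (SD, n = 5 branches each). It changed by -0.77 on the log2 scale (SE 0.088) at a limma adjusted p of 9.9e-06. The plus-strand gene averaged 10.7 ± 1.75 scaled TPM in tree 4, against 22.6 ± 0.896 in tree 13 and 16.8 ± 1.31 in tree 14, and changed by -0.82 (SE 0.074) at a limma adjusted p of 8.84e-07. No branch of tree 4 overlapped the other trees in either gene. The next pairs lower in both genes were PtStettler14.13G069600 and PtStettler14.13G069700 (log2 changes -0.37 and -0.33) and PtStettler14.09G134400 and PtStettler14.09G134500 (-0.30 and -0.56). PtStettler14.13G069700 lost its call for TPM as deposited, and PtStettler14.09G134400 lost it there and without branch 4.3 or branch 4.4.

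Among pairs higher in tree 4 in both genes, the 3 largest by the smaller of the 2 changes lay on chromosomes 10, 14 and 17. PtStettler14.10G004700 (1026538 to 1038563) and PtStettler14.10G004800 (1039213 to 1042075) changed by 0.34 (SE 0.038) and 0.32 (SE 0.093) on the log2 scale, at limma adjusted p values of 8.55e-06 and 0.0133. The minus-strand gene had 2.56, 2.82, 2.73, 2.77 and 2.74 scaled TPM in branches 4.1 to 4.5, against 1.87, 1.89, 1.68, 2.02 and 1.81 in tree 13 and 1.96, 2.20, 1.95, 2.04 and 2.11 in tree 14, without overlap. In the plus-strand gene the trees overlapped, with 9.81 to 11.5 scaled TPM in tree 4 against 6.44 to 10.06 in tree 14. PtStettler14.14G116500 and PtStettler14.14G116600 changed by 0.29 and 0.44, and PtStettler14.17G129800 and PtStettler14.17G129900 by 0.26 and 0.37. In both genes of these 2 pairs tree 4 overlapped tree 14. In the pair on chromosome 17 the values were 9.81 to 11.6 scaled TPM in tree 4 against 8.68 to 11.6 in tree 14 for the minus-strand gene.

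In 9 pairs the partners changed in opposite directions, led by PtStettler14.04G174100 (chromosome 4, 20520355 to 20524634) and PtStettler14.04G174200 (20525630 to 20530009), which lie 996 bases apart. The minus-strand gene had 17.2, 19.2, 18.7, 17.0 and 19.2 scaled TPM in branches 4.1 to 4.5, against 10.6, 11.02, 10.5, 10.9 and 9.80 in tree 13 and 12.9, 13.1, 14.4, 11.4 and 11.6 in tree 14. The plus-strand gene had 93.2, 88.1, 85.4, 91.4 and 79.6 in tree 4, against 101.0, 106.7, 108.9, 105.1 and 111.2 in tree 13 and 109.6, 103.5, 110.8, 103.1 and 105.2 in tree 14. Tree 4 lay above every other branch in the minus-strand gene and below every other branch in its partner. The minus-strand gene changed by 0.61 on the log2 scale (SE 0.052) and its partner by -0.28 (SE 0.042), at limma adjusted p values of 4.96e-07 and 0.000128. The call of the plus-strand gene was lost for TPM as deposited (adjusted p = 0.116). The next pairs in opposite directions were PtStettler14.10G028900 and PtStettler14.10G029000 (0.20 and -0.36) and PtStettler14.06G179400 and PtStettler14.06G179500 (0.31 and -0.25). PtStettler14.06G179500 lost its call for TPM as deposited, without branch 4.5 and without replicate 1 or replicate 2 of every branch (adjusted p up to 0.148 with limma).

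In other pairs a large change of 1 gene was not matched in size by its partner. Outside the rule for named pairs, 6 pairs were chosen after their values were seen because 1 gene was called with a change of at least 0.75 log2 units, and in 3 of them the partner was not called. PtStettler14.10G191600 (chromosome 10, 20274874 to 20278649) had 11.9, 12.6, 12.6, 12.1 and 12.9 scaled TPM in branches 4.1 to 4.5, against 4.74, 4.64, 4.62, 5.02 and 6.08 in tree 13 and 7.16, 7.76, 7.70, 8.08 and 7.85 in tree 14. It rose by 0.89 (SE 0.051, limma adjusted p = 8.44e-09), with every branch of tree 4 above all others. Its partner PtStettler14.10G191700, 895 bases away, averaged 7.36 ± 0.385 in tree 4, against 7.05 ± 0.365 in tree 13 and 6.82 ± 0.646 in tree 14 (SD, n = 5 branches each), a change of 0.08 at a limma adjusted p of 0.246.

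A similar contrast was seen on chromosome 5 across a gap of 211 bases. PtStettler14.05G191800 (21630818 to 21633707) had 9.56, 7.75, 7.79, 7.55 and 6.36 scaled TPM in tree 4, against 18.3, 17.2, 15.9, 15.5 and 17.3 in tree 13 and 12.5, 12.03, 12.2, 10.02 and 9.88 in tree 14. The branches of tree 4 lay below all others, and the change was -0.75 (SE 0.076, limma adjusted p = 2.96e-06). Its partner PtStettler14.05G191700 averaged 1.26 ± 0.0628 in tree 4, against 1.43 ± 0.110 in tree 13 and 1.40 ± 0.115 in tree 14, with a change of -0.09 at a limma adjusted p of 0.102. Within trees the partners had an r of -0.40.

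In 3 of the 6 pairs both genes fell in tree 4, but by different amounts. PtStettler14.09G045200 had 16.9, 19.5, 17.6, 14.5 and 18.9 scaled TPM in tree 4, against 29.9, 36.4, 49.6, 44.1 and 40.8 in tree 13 and 32.97, 34.2, 40.2, 38.1 and 37.9 in tree 14. It changed by -1.09 (SE 0.098, limma adjusted p = 8.79e-07) and its partner PtStettler14.09G045100 by -0.30, and their r was 0.63 over branch means but -0.61 over deviations from tree means. PtStettler14.05G025300 changed by -0.83 and PtStettler14.05G025200 by -0.28, with an r of 0.89 that was 0.73 over deviations from tree means. PtStettler14.13G018900 changed by -0.77 and PtStettler14.13G019000 by -0.23, with an r of 0.90 that was 0.78 over deviations from tree means. In the last 2 pairs the branches of a tree thus moved in parallel as well, with the lower-expressed gene covering the wider range, but over library deviations r was 0.05 and -0.05.

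The sixth pair lay on chromosome 3, 539 bases apart. PtStettler14.03G155700 (19472644 to 19476433) had either 0.126 to 1.32 scaled TPM (28 libraries) or 12.9 to 20.1 (17 libraries), with nothing in between. The higher level was found in 2 of 15 libraries of tree 4, in 8 of tree 13 and in 7 of tree 14, and both levels occurred among libraries of 1 branch in 10 of the 15 branches. Its change of -1.46 (SE 0.470, limma adjusted p = 0.024) is a comparison of branch means that mix the 2 levels, and the branch means of the trees overlapped. What separates the levels was not tested. Its partner PtStettler14.03G155600 ran from 2.83 to 4.46 scaled TPM over all 45 libraries and changed by -0.05 at a limma adjusted p of 0.553.

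In the 132 divergent pairs with 1 gene called, the uncalled partner had a change of the same sign in 67 (50.8%). The median absolute change was 0.23 log2 units in the called genes and 0.07 in their partners.

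**Figure D5:**
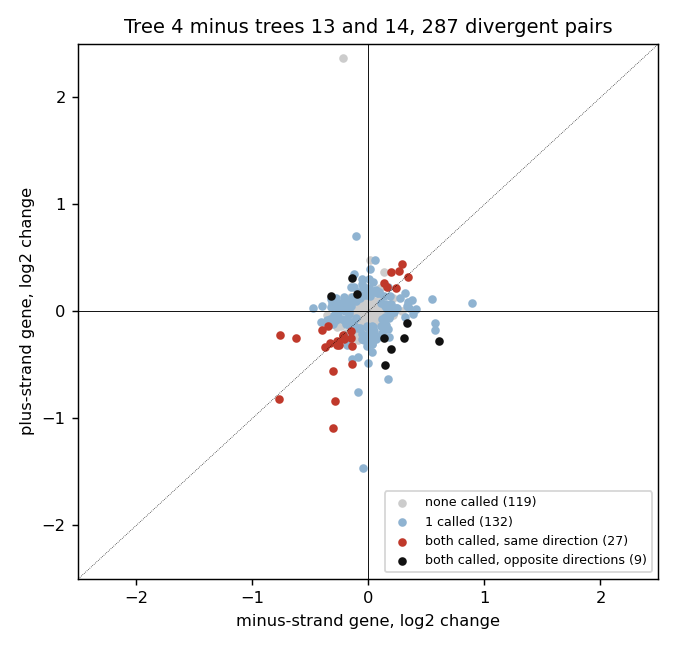
Log2 change of the plus-strand gene against that of the minus-strand gene, tree 4 minus trees 13 and 14, for 287 divergent pairs, coloured by how many of the partners limma called. Of the 36 pairs with both genes called, 27 lie in the quadrants of 1 direction and 9 in the opposite quadrants, and the dotted line marks equal changes. The point near 2.37 is PtStettler14.07G059900, which was not called.

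Whether partners changed by unequal amounts was tested on the difference of their log2(scaled TPM + 1) values within each branch. A scaling factor nearly cancels in it only where both genes lie well above 1 TPM. In 134 of the 287 divergent pairs the lower gene had a mean of 1 to 5 TPM. In such pairs the added 1 can make equal fold changes look unequal, and unequal ones look equal. The difference changed in tree 4 in 112 of 287 divergent pairs (39.0%), against 39.4% of the 2443 pairs tested, 36.0% of same-strand and 42.4% of convergent pairs. The plus-strand gene was higher relative to its partner in 58 divergent pairs (20.2%, against 19.9% of all pairs tested for the second gene along the chromosome) and lower in 54 (18.8%, against 19.5%). In 2 divergent pairs a called change reached 1 log2 unit, against 26 of 1005 same-strand and 38 of 1151 convergent pairs. The first was PtStettler14.07G059800 and PtStettler14.07G059900 (2.59, SE 0.977, limma adjusted p = 0.0457). The other was PtStettler14.03G155600 and PtStettler14.03G155700. In both pairs the values of the plus-strand gene fell into 2 separate classes of libraries, which the branch means mix. For PtStettler14.04G174100 and PtStettler14.04G174200 the plus-strand gene changed by -0.89 relative to its partner (SE 0.070, limma adjusted p = 1.2e-07). For PtStettler14.18G089900 and PtStettler14.18G090000 the relative change was -0.05 (SE 0.054, limma adjusted p = 0.466), and for PtStettler14.10G004700 and PtStettler14.10G004800 it was -0.02 (SE 0.101, adjusted p = 0.914). In PtStettler14.09G134400 and PtStettler14.09G134500 the plus-strand gene fell further than its partner on this scale, by -0.25 (SE 0.084, limma adjusted p = 0.0254). The minus-strand gene averaged only 1.53 scaled TPM in tree 4, against 2.12 in tree 13 and 2.11 in tree 14. The added 1 therefore shrank its change more than that of its partner, and that part of the difference was not measured.

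Stem 14 was compared with stem 13 on the 8 branches that the study analysed, 4 of each stem. Limma called 24 of the 574 members (4.18%), against 8.91% of the 23383 genes tested. Of these, 15 were higher in stem 14 (2.61%, against 4.98% of all genes) and 9 lower (1.57%, against 3.93%), and none changed by 1 log2 unit. The count rested on single branches, since it ran from 6 without branch 14.4 to 65 without branch 13.3. It was 61 without branch 14.2, 12 without branch 13.1, 10 without branch 13.5, 8 without branch 14.3 and 7 without branch 13.2 or branch 14.5. It was 9 without replicate 1 of every branch, and 8 for TPM as deposited, with 3 higher and 5 lower. Over all genes 1123 of 23393 were called for TPM as deposited, 566 of them higher and 557 lower. Both genes were called in 2 divergent pairs (0.697%), against 10 same-strand pairs and 0.982% of all close neighbouring pairs. In PtStettler14.18G089900 and PtStettler14.18G090000 only the plus-strand gene was called, with a log2 change of -0.43 (limma adjusted p = 0.00693). The minus-strand gene changed by -0.23 (limma adjusted p = 0.114).

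The pair higher in stem 14 was PtStettler14.05G200500 and PtStettler14.05G200600 on chromosome 5, 385 bases apart. The minus-strand gene had 193.3, 207.4, 209.9 and 208.6 scaled TPM in branches 14.2 to 14.5, against 144.5, 163.3, 184.8 and 163.1 in branches 13.1, 13.2, 13.3 and 13.5. Its log2 change was 0.33 (limma adjusted p = 0.0353) and that of its partner 0.21 (adjusted p = 0.0481). The pair lower in stem 14 was PtStettler14.04G195100 and PtStettler14.04G195200 on chromosome 4, 833 bases apart, with log2 changes of -0.26 (adjusted p = 0.0434) and -0.33 (adjusted p = 0.0428). The branches compared did not overlap between stems in PtStettler14.05G200500, PtStettler14.05G200600 and PtStettler14.04G195100, but they did in PtStettler14.04G195200. All 4 genes lost their call in at least 9 of the alternatives tried, most of them with a branch or a replicate left out.

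Among the 28 pairs of these 8 branches, 8 of the 574 members (1.39%) were called in at least 1 pair of branches, with an adjusted p up to 0.01 together with a change of 1 log2 unit or more, against 5.60% of the 23383 genes tested. Here the p-values rest on the spread of libraries within branches, pooled over the 8 branches. The study's methods call the 3 libraries of a branch technical replicates, so these p-values may measure library preparation only. The count was 5 without replicate 2 of every branch. With limma 0 divergent pairs had both genes called, against 6 same-strand and 0 convergent pairs and 0.246% of all close neighbouring pairs. At an unadjusted p under 0.05 and the same size of change, both genes passed in the same pair of branches in 4 divergent pairs (1.39%), 38 same-strand pairs (3.78%) and 4 convergent pairs (0.348%), and in 1.88% of all close neighbouring pairs. PtStettler14.04G106000 was called in 3 pairs of branches, with 1.29 scaled TPM in branch 14.4 and 4.19 in branch 13.1. Its partner PtStettler14.04G106100 ran from 49.9 to 61.4 scaled TPM. PtStettler14.01G211500 and PtStettler14.05G025300 were called in 2 pairs of branches each. PtStettler14.02G125100, PtStettler14.05G007700, PtStettler14.08G077300, PtStettler14.13G018900 and PtStettler14.14G132100 were called in 1 each. In all 8 cases the other gene of the divergent pair was not called, and of these partners PtStettler14.13G019000 ran from 33.0 to 37.7 scaled TPM where PtStettler14.13G018900 ran from 4.02 to 9.24.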

How the data were processed

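The authors trimmed paired reads with Trimmomatic 0.36, aligned them to the Stettler genome with HISAT2 2.1.0 and estimated expression of annotated transcripts with StringTie 1.3.4d. The study's methods name default settings and no strand option for counting. The authors deposited 1 table per library with TPM and FPKM values, gene positions and strands. The deposited FPKM values served only to recover depth.

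Scaling used median-of-ratios factors from 25014 genes above 0 in all libraries, and tests were run on the log2(scaled TPM + 1) scale, which understates changes of low genes. Genes with at least 1 TPM in 3 libraries of a fit entered limma 3.58.1 (R 4.3.3), with the trend option on and p-values adjusted over all genes by Benjamini-Hochberg. The design and the thresholds for pairs of branches followed the study, with limma in place of its count test because TPM values are not counts. Python 3.11.15, numpy 2.4.6 and pandas 2.3.3 did the rest, and the fits and correlations were tested on simulated data. Co-varying genes had r over 0.8 with the leading component of library deviations.

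Named pairs were the 4 highest and 4 lowest r among pairs with both genes spanning 1 log2 unit, the extremes of level, ratio and gap, and up to 3 pairs per direction in the tree and stem comparisons. The rule for pairs of branches found none. The members and lists were chosen with earlier results of these data known. Alternatives covered scaling, pseudocount, filters, gap limit, trend, branches, libraries and the replicate number as a block.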

Additional observations from a re-analysis of the deposited data

Results flagged for a closer look

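The difference between the partners of a named pair (plus-strand minus minus-strand gene, on the log2(scaled TPM + 1) scale) was examined over the 5 branches of each tree, in 87 groups of branches. In 4 of them 1 branch stood apart from the other branches of its tree. Chance alone gives about 1 in 20, so these 4 of 87 are no more than chance gives.

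The difference of PtStettler14.06G179500 minus PtStettler14.06G179400 was 2.67 in branch 13.1, against 3.20 to 3.32 in the other branches of tree 13. The minus-strand gene had 2.45, 1.99 and 1.69 scaled TPM in the 3 libraries of branch 13.1, and the plus-strand gene had 17.4, 19.8 and 17.6. The difference of PtStettler14.10G004800 minus PtStettler14.10G004700 was 1.81 in branch 4.1, against 1.51 to 1.59 in the other branches of tree 4.

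The difference of PtStettler14.11G096400 minus PtStettler14.11G096300 was 2.99 in branch 13.1, against 2.104 to 2.35 in the rest of tree 13. Both genes are co-varying, and the minus-strand gene had only 0.0409, 0.316 and 1.20 scaled TPM in the 3 libraries of that branch. The difference of PtStettler14.13G069700 minus PtStettler14.13G069600 was -2.35 in branch 4.5, against -2.22 to -2.17 in the other branches of tree 4, where both genes had their lowest branch means of all 15 branches (4.27 and 26.03 scaled TPM).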

How the results depend on the processing

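Of 139 values of the main results under alternatives, 90 kept their direction and stayed near the main value, 43 moved and 6 changed sign. The difference in median r, divergent minus same-strand, was -0.11. It became 0.0139 for TPM as deposited, 0.00587 over 10 branches and 0.0154 over the 8 branches the study analysed. It was 0.000539 over library deviations and 0.0180 after removing the 2 leading components. Against convergent pairs, which is another comparison, the difference was 0.138. The difference from same-strand pairs moved to -0.0137 with no filter and -0.285 at gaps up to 200 bases. It was -0.0178 over deviations from tree means and -0.0701 without co-varying genes. It ran from -0.124 to -0.0482 with 1 branch left out, and from -0.104 to -0.0360 with 1 replicate left out. The median r of divergent pairs was 0.14. It became 0.556 for TPM as deposited, 0.114 with Spearman's rho, 0.224 at 5 TPM or more, 0.0876 with no filter, 0.183 and 0.242 at gaps up to 500 and 200 bases, 0.111 over deviations from tree means, 0.187 over 10 or 8 branches, 0.0721 over library deviations, 0.109 without the third library of branch 14.1 and 0.0877 without co-varying genes. It ran from 0.103 to 0.163 with 1 branch and from 0.119 to 0.155 with 1 replicate left out. The cause of these moves was not tested.

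The count of members called was 204 for tree 4, and it ran from 155 to 212 with 1 branch and from 139 to 188 with 1 replicate left out. For stems it was 24, and it was 8 for TPM as deposited, 6 to 65 with 1 branch and 9 to 24 with 1 replicate left out. Among pairs of branches it was 8, and it was 4 at a mean of at least 5 TPM, where fewer genes were tested, and 5 to 7 with 1 replicate left out. The within-pair difference was called in 112 divergent pairs, in 66 where both genes had to reach 5 TPM, in 77 to 116 with 1 branch and in 79 to 100 with 1 replicate left out. With the replicate number as a block the count among pairs of branches was 7. Deviations of libraries with the same number had a median r of 0.0147 (315 pairs), against -0.009 for other numbers (630 pairs), and 21 of 45 libraries were closest to their own number, so the numbers were not taken as pairing. Of 535 values for single pairs and other quantities, 459 kept their side of the threshold or stayed near the main value, 50 lost a call and 26 moved. Genes with near-identical copies elsewhere could not be identified without sequence, and unannotated ends of transcripts in the short gaps could not be seen.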

Other observations

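Genes of divergent pairs were searched for values that fell into 2 separate classes of libraries, with a step of at least 2 log2 units between neighbouring sorted values and at least 5 libraries on either side, a choice made after seeing the data. This was found in 2 of the 574 genes (0.348%), against 22 of the 21792 genes with a mean of at least 1 TPM outside divergent pairs (0.101%). One was PtStettler14.03G155700, described above. The other was PtStettler14.07G059900, a co-varying gene that was listed at 0 in 26 libraries and had 61.4 to 2208 scaled TPM in 19, while its partner PtStettler14.07G059800 had 28.2 to 2489 scaled TPM and was never at 0. In both genes libraries of the same branch fell into different classes. What separates the classes was not tested.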
